A study of Arabidopsis thaliana with 12 samples.

Results

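The nuclear genes of the chlorophyll antenna and of the photosystem subunits were followed in whole Arabidopsis thaliana seedlings of wild-type Col-0 and a homozygous tic-2 line, which is mutated in TIME FOR COFFEE (TIC), a nuclear component of the circadian clock. The members were picked by gene name and locus, with earlier results of these data known, by a rule that itself uses no measured value: 41 of the 25729 genes in the table, of which 19 encode antenna proteins (LHCA1 to LHCA6, the LHCB1 and LHCB2 copies, LHCB3, LHCB4.1 to LHCB4.3, LHCB5 and LHCB6) and 22 encode subunits of photosystem I (12 PSA genes) or photosystem II (10 PSB genes). RNA was sequenced from seedlings that were 10 days old, grown at 22 °C under light conditions that the labels call LD on MS medium with 3% sucrose, and harvested either at predawn (ZT 0, the zeitgeber time that counts hours from lights-on) or at postdusk (ZT 12). This gave 4 groups of 3 libraries, Col-0 predawn, tic-2 predawn, Col-0 postdusk and tic-2 postdusk, and both genotypes carried the Col-0 ecotype label. The study title asks how TIC acts on hypocotyl growth and phytochrome A signalling. A single mutant allele was used, and the labels do not describe its lesion. TIC transcript levels were not used here as a check of genotype.

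Light-harvesting complex (LHC) proteins bind chlorophyll and carotenoids and pass excitation energy to the reaction centres. LHCA proteins form the antenna of photosystem I, LHCB1, LHCB2 and LHCB3 form the trimeric antenna LHCII of photosystem II, and LHCB4, LHCB5 and LHCB6 are the monomeric antennae CP29, CP26 and CP24 that link the trimers to the core. The chlorophyll-binding core subunits are encoded in the chloroplast and are not among the members, while the peripheral PSA and PSB subunits followed here are made in the cytosol and imported. Transcription of LHC genes, which older work calls CAB genes, responds to phytochrome and to the circadian clock, and in light-grown Arabidopsis their transcripts peak in the day and are low in the evening.

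Values were FPKM, a level corrected for gene length and for the size of the library. Tests were made with limma on log2(FPKM + 1) over the 19274 genes with at least 1 FPKM in at least 3 libraries, and a gene is called where the p-value adjusted over all of them was below 0.05. All 41 members passed that filter. Changes written as a number followed by "-fold" are ratios of group mean FPKM. The log2 fold changes, with their SE and p-values, come from the fit on log2(FPKM + 1), so the 2 measures differ slightly. The FPKM steps correspond to 19255016 to 21750334 reads per library, and a member held between 144 reads (LHCB4.3) and 520788 reads (LHCB1.3) in a library, so counting error is a larger part of the spread for the low members than for the high ones. Columns were placed in groups by the genotype and ZT in their own names, because the description field of 6 samples disagrees with their titles. The letters A, B and C are used here only to name libraries. Tic-2 postdusk C stood apart: over all genes, the mean chi-square per gene between replicates was 8.19 for tic-2 postdusk A against B but 25.0 and 34.5 against C, compared with 6.13 to 15.5 within Col-0. The tic-2 predawn libraries differed more evenly, with 21.8 for A against B, 21.7 for B against C and 42.6 for A against C. Tic-2 postdusk C was the lowest of its group for 21 members and the highest for 12. Counts are given with and without both tic-2 libraries lettered C, although these values set apart only the postdusk one. Because tissue was whole seedlings, fewer green cells and less transcript per cell cannot be told apart. The summed level of the 12 root marker genes ran from 59.5 to 127 FPKM per library, with NRT2.1 and IRT1 below the filter and at 0 in some libraries. That sum was 95.4 ± 5.61 FPKM in Col-0 predawn, 118 ± 8.28 in tic-2 predawn, 70.1 ± 15.1 in Col-0 postdusk and 77.5 ± 2.67 in tic-2 postdusk (SD, n = 3). PHO1 was its largest single part, with 39.3 ± 2.53 FPKM in Col-0 predawn and 56.1 ± 11.3 FPKM in tic-2 predawn.

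The LHCB1 copies show why the levels of single copies need care. LHCB1.2 (AT1G29910, chr1:10472280-10473502, minus strand), LHCB1.1 (AT1G29920, chr1:10474656-10475969, minus strand) and LHCB1.3 (AT1G29930, chr1:10477885-10479114, plus strand) stand side by side on chromosome 1, each with 1 exon in the RefSeq annotation of TAIR10.1, and their coding sequences of 804 bases are 95.6% to 96.4% identical. The first 90 coding bases of the 3 copies are shown from RefSeq TAIR10.1. They were chosen because no other stretch of 90 coding bases holds more differing positions, so they are not typical of the whole. Capitals mark the 9 positions in this stretch at which at least 1 copy differs from the others.
LHCB1.3: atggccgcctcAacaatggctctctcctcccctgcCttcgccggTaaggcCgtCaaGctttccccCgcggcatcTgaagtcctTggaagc
LHCB1.1: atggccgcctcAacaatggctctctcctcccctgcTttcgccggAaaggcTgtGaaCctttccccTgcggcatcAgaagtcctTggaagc
LHCB1.2: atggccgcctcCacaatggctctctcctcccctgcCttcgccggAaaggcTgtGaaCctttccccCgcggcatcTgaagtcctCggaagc
Over the whole coding sequence 47 positions differed among the 3 copies. Of all 50-base windows in the coding sequence, 34.3% in LHCB1.1, 26.6% in LHCB1.3 and 16.6% in LHCB1.2 occurred without a change in another member, so a short read from them fits more than 1 gene. LHCB2.1 (AT2G05100, chr2:1822990-1824480, minus strand) and LHCB2.2 (AT2G05070, chr2:1799234-1800472, minus strand) were 96.6% identical, and 41.1% of the windows of each were shared. LHCB1.4 (AT2G34430, chr2:14524607-14525918, plus strand) was 86.7% to 88.1% identical to the other LHCB1 copies with 0.133% of its windows shared with other members, and LHCB2.3 (AT3G27690, chr3:10255906-10257489, plus strand) shared none with other members. LHCB1.5 was not part of this search, so its likeness to LHCB1.4 was not measured. How the counting treated reads that fit several places is not given in the sources used here, so levels of LHCB1.1, LHCB1.2, LHCB1.3, LHCB1.4, LHCB2.1 and LHCB2.2 are uncertain, and the 4 LHCB1 copies and the 3 LHCB2 copies in the table were also tested as sums.

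The 250 bases before the annotated gene start were searched on both strands for CCAATC, which is associated with binding of the GLK transcription factors, for the CCA1-binding forms AAAAATCT and AACAATCT, for the evening element AAAATATCT, for the G-box CACGTG and for the I-box GATAAG. The 5 windows printed here belong to members on which the results turn, and each holds at least 1 match. The windows of LHCB4.3 and PSBS, also among those members, held no match and are not printed. Of all members, 22 had a match to any of these motifs, but the share of all genes with any match was not computed. Capitals mark every match to one of these motifs, in either orientation. All come from RefSeq TAIR10.1 and read 5′ to 3′ on the strand of the gene: LHCB1.1 from chr1:10475970-10476219 (minus), LHCB1.3 from chr1:10477635-10477884 (plus), LHCB2.1 from chr2:1824481-1824730 (minus), LHCA4 from chr3:17495034-17495283 (minus) and PSAN from chr5:25629709-25629958 (minus).
LHCB1.1: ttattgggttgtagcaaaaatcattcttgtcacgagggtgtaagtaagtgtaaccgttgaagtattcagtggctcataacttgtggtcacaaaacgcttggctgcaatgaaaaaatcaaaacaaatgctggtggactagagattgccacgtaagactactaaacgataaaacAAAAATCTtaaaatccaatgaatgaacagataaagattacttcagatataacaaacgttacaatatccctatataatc
LHCB1.3: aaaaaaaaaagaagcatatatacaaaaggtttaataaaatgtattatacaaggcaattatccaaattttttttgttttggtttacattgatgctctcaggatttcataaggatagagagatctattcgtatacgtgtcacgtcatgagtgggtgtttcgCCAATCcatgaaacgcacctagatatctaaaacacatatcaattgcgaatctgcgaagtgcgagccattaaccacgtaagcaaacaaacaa
LHCB2.1: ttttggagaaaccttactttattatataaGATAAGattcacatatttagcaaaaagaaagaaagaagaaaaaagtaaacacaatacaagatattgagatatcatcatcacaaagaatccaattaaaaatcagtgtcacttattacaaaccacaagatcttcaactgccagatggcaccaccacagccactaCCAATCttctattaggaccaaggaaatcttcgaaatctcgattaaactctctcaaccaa
LHCA4: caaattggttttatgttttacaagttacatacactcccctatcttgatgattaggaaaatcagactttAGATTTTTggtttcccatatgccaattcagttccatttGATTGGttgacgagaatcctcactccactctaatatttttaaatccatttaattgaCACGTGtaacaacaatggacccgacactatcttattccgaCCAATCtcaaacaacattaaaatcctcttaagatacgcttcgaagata
PSAN: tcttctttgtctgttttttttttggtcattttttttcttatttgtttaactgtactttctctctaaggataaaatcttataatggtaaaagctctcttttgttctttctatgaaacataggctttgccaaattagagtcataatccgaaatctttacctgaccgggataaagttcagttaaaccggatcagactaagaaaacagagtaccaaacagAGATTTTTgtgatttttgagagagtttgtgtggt
CCAATC was found in 9 of the 19 antenna windows (47.4%), in 1 of the 22 photosystem windows (4.55%, PSBQ2) and in 10.2% of the windows of all 27443 protein-coding genes. The 9 antenna genes were LHCA1, LHCA3, LHCA4, LHCB1.3, LHCB2.1, LHCB2.2, LHCB2.3, LHCB4.1 and LHCB4.2. The CCA1-binding form AAAAATCT was found in 3 antenna windows (LHCA4, LHCB1.1 and LHCB1.4) and 2 photosystem windows (PSAN and PSAO), against 6.69% of all genes. AACAATCT occurred only before PSAE2 among the members (1.83% of all genes), and the evening element only before LHCA5 (2.36% of all genes). The G-box was in 4 antenna and 4 photosystem windows (6.49% of all genes) and the I-box in 4 and 5 (12.3% of all genes). No matches overlapped, and a match is a description of the letters in the window only.

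The members were among the most abundant transcripts of the seedlings. LHCB1.3 had the highest mean of all genes in the table, 9865 FPKM over the 12 libraries, PSBR the third highest with 4996 FPKM, and PSBO1 the eighth highest with 2571 FPKM. Together the 41 members made up 10.8% ± 0.174 of the summed FPKM in Col-0 predawn and 12.2% ± 1.01 in tic-2 predawn, and 5.23% ± 0.373 in Col-0 postdusk and 7.45% ± 0.284 in tic-2 postdusk (SD, n = 3). At the low end, LHCB4.3 averaged 37.2 FPKM and PSAG 44.4 FPKM. Each was the lowest member of its class.

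**Figure D1:**
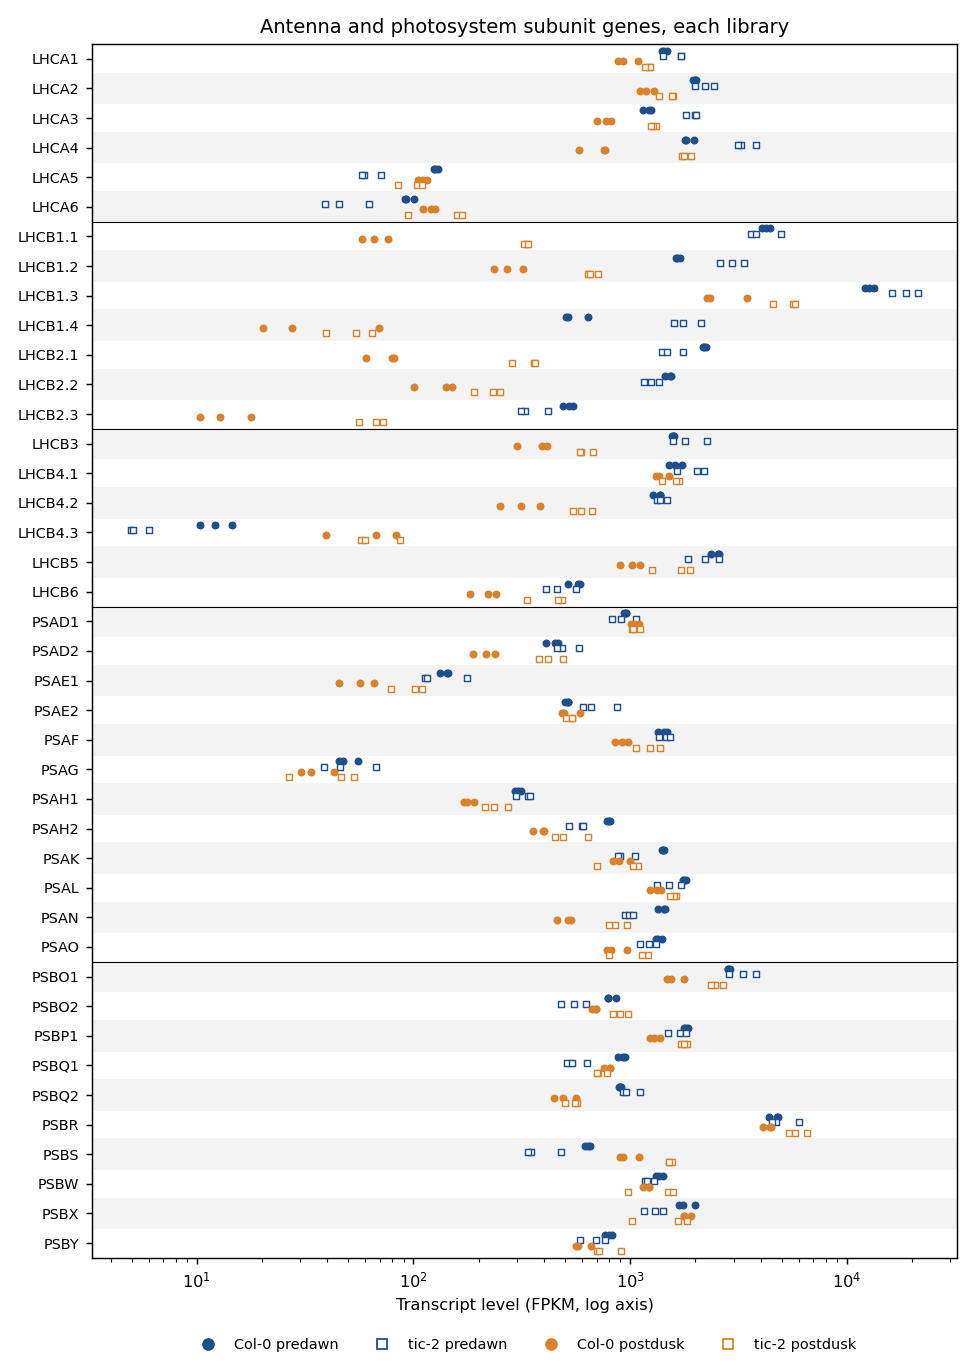
Transcript level of each of the 41 members in each of the 12 libraries (FPKM, log axis), with filled circles for Col-0, open squares for tic-2, blue for predawn and orange for postdusk. The LHCB1 and LHCB2 copies spread over the widest range, and Col-0 postdusk lies lowest for LHCB1.1 at 58.0 to 76.1 FPKM against 4055 to 4408 FPKM in Col-0 predawn.

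In Col-0, where 37.1% of all genes tested changed by call, 28 of the 41 members were lower at postdusk than at predawn (68.3%, against 14.4% of all genes) and 2 were higher (4.88%, against 22.7%). The antenna held 15 of these falls among its 19 members, with a median log2 fold change of -1.41, and the photosystem subunits 13 among 22, with a median of -0.47; the median of all genes was 0.05. In tic-2, where 37.9% of all genes were called, 18 members were lower at postdusk (43.9%, against 19.4%) and 6 were higher (14.6%, against 18.5%). There 14 of 19 antenna members were lower, with a median of -0.91, and 4 of 22 photosystem subunits were lower and 3 higher, with a median of -0.09. The 5 comparisons are all made from the same 4 groups, so they share libraries and are not independent of each other. Without both C libraries the tic-2 counts were 15 lower and 8 higher. The share of all genes called in that fit is not given here.

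Between genotypes, the direction differed with the harvest time. At predawn 27.7% of all genes were called, and 6 members were higher in tic-2 than in Col-0 (14.6%, near the 13.1% of all genes) and 11 were lower (26.8%, against 14.6%). At postdusk 29.5% of all genes were called, and 24 members were higher (58.5%, against 9.71%) and none lower by limma (against 19.8%), and at an unadjusted p below 0.05 the number lower was also 0. The interaction, the genotype effect at postdusk minus that at predawn, was called in 19 members, all higher (46.3%, against 15.9% of all genes called, 7.28% higher and 8.59% lower); at an unadjusted p below 0.05 there were 26 higher and 2 lower, LHCB1.4 and PSAE2. At predawn the antenna had 5 of 19 called higher and 5 lower, and the photosystem subunits 1 higher and 6 lower of 22. The medians there were 0.06 and -0.14. At postdusk the antenna had 13 of 19 called higher and the photosystem subunits 11 of 22, with medians of 0.75 and 0.38. Without both C libraries, 5 members were higher and 14 lower at predawn, 28 higher at postdusk and 25 higher in the interaction. How many of all genes were called in that fit is not given, so these counts have no background beside them.

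The library scaling bears on the postdusk comparison. All genes had a median log2 fold change there of -0.12 in the deposited values and -0.01 after median-of-ratios rescaling, and for the interaction -0.11 and -0.03. Of all calls at postdusk, 32.9% were higher in tic-2 in the deposited values, 57.2% after that rescaling and 50.7% after quantile normalization; for the interaction the shares were 45.9%, 60.4% and 57.8%, and for the time change in Col-0 the share higher at postdusk was 61.1%, 52.3% and 50.1%. After median-of-ratios rescaling, 27 members were higher and 0 lower at postdusk, where 2493 of all genes were called higher and 1868 lower. In the interaction 21 members were higher and 0 lower, beside 1627 higher and 1067 lower among all genes.

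**Figure D2:**
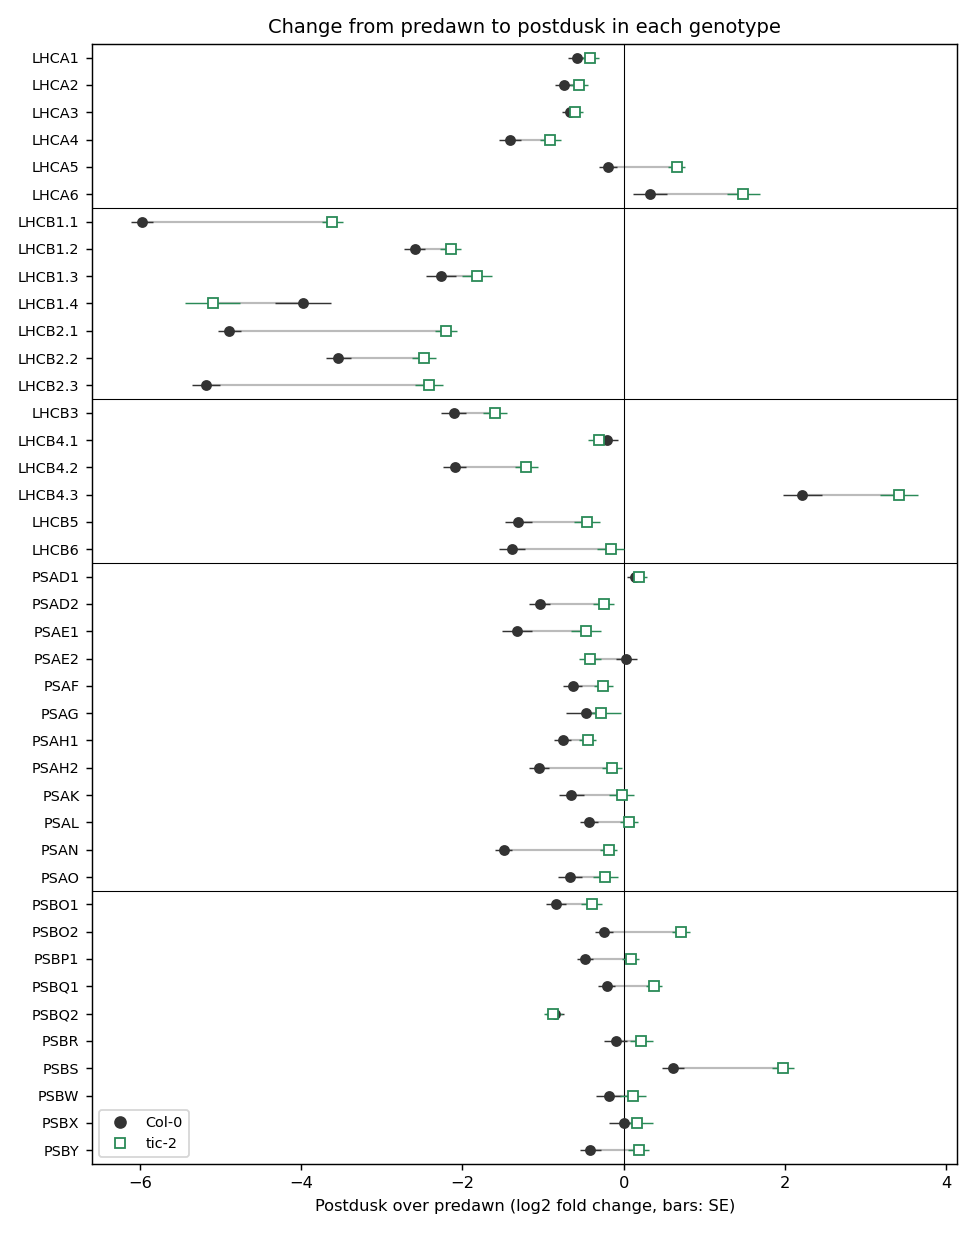
Change from predawn to postdusk for each member (log2 fold change of FPKM + 1, bars are the SE from limma), with filled circles for Col-0 and open squares for tic-2, grouped by class. For most members the tic-2 value lies to the right of the Col-0 value, as for LHCB1.1 at -3.62 against -5.98, while LHCB1.4 lies to the left at -5.10 against -3.98.

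Among the photosystem I antenna genes, LHCA1, LHCA2, LHCA3 and LHCA4 encode the main antenna belt, and LHCA5 and LHCA6 encode minor proteins that link photosystem I to the NDH complex of cyclic electron flow. The belt genes were lower at postdusk in both genotypes, with log2 fold changes of -0.58, -0.74, -0.66 and -1.41 in Col-0 and -0.42, -0.56, -0.60 and -0.91 in tic-2 for LHCA1 to LHCA4 in order, all called. The LHCA1 call in tic-2 (limma adjusted p = 0.0137) was lost without both C libraries, without the filter and with only the compared groups in the fit (adjusted p up to 0.0712 over 23 alternatives). LHCA4 (AT3G47470, chr3:17493343-17495033, minus strand, 4 exons) had 1816, 1797 and 1968 FPKM in libraries A, B and C of Col-0 predawn and 3811, 3240 and 3138 FPKM in tic-2 predawn. At postdusk it had 769, 583 and 760 FPKM in Col-0 and 1900, 1735.5 and 1771 FPKM in tic-2. Every tic-2 library lay above every Col-0 library of the same time, and tic-2 at postdusk overlapped Col-0 at predawn. The genotype difference was 0.86 ± 0.13 (log2, SE) at predawn (limma adjusted p = 0.000453) and 1.36 ± 0.13 at postdusk (limma adjusted p = 4.54e-05). LHCA3 was higher in tic-2 at both times, by 0.69 and 0.75, with 1206 ± 50.8 FPKM at predawn in Col-0 and 1941 ± 119 in tic-2, and 764 ± 59.8 and 1280 ± 36.6 at postdusk (SD, n = 3).

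LHCA5 and LHCA6 moved apart from the belt. LHCA5 (AT1G45474, chr1:17179250-17180806, plus strand) had 126, 129 and 124 FPKM in Col-0 predawn against 70.6, 58.9 and 58.0 FPKM in tic-2 predawn, and 116, 105 and 111 FPKM in Col-0 postdusk against 103, 110 and 84.6 FPKM in tic-2 postdusk. The genotypes were separate at predawn, with tic-2 lower, and overlapped at postdusk. The difference was -1.01 ± 0.11 at predawn (limma adjusted p = 3.91e-05) and -0.16 ± 0.11 at postdusk (limma adjusted p = 0.278), and the interaction was 0.85 (limma adjusted p = 0.00269). LHCA6 was likewise lower in tic-2 at predawn, 48.9 ± 12.1 FPKM against 94.5 ± 4.83 FPKM, a log2 fold change of -0.96 ± 0.21 (limma adjusted p = 0.0043). From predawn to postdusk in tic-2 it rose 2.87-fold, a log2 fold change of 1.49 ± 0.21 (limma adjusted p = 0.000149), and LHCA5 rose 1.59-fold, while neither change was called in Col-0 (-0.19 for LHCA5 and 0.33 for LHCA6). LHCA2 was called higher in tic-2 at postdusk by 0.33 (limma adjusted p = 0.0495), and that call was lost when any Col-0 library, A of tic-2 predawn, or A or B of tic-2 postdusk was left out (adjusted p from 0.00134 to 0.342 over 23 alternatives). The same difference for LHCA1, 0.33 with a limma adjusted p of 0.0513, was not called.

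LHCB1, LHCB2 and LHCB3 make up the trimers of LHCII, the most abundant antenna of the thylakoid, and LHCB1 and LHCB2 are phosphorylated when excitation is shared out between the photosystems. All 7 LHCB1 and LHCB2 copies fell from predawn to postdusk in both genotypes. LHCB1.3 had 13371, 12701 and 12070 FPKM in libraries A, B and C of Col-0 predawn, 18700, 16200 and 21329 FPKM in tic-2 predawn, 3474, 2329 and 2256 FPKM in Col-0 postdusk and 5629, 4573 and 5750 FPKM in tic-2 postdusk. No group overlapped another, tic-2 predawn was the highest and Col-0 postdusk the lowest. It fell 4.73-fold across the day in Col-0 and 3.52-fold in tic-2, and was higher in tic-2 by 1.01 ± 0.19 at postdusk (limma adjusted p = 0.00284). At predawn the difference was 0.55 ± 0.19 (limma adjusted p = 0.046), a call lost under 11 of 22 alternatives (adjusted p from 0.0211 to 1). It was lost when any Col-0 predawn library, tic-2 predawn A or C, tic-2 postdusk A or both C libraries were left out. Pseudocount 0.1, no filter, median-of-ratios rescaling and quantile normalization also lost it. The value of 1 belongs to quantile normalization, which gives the most abundant gene the same value in every library.

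LHCB2.1 had 2233, 2186 and 2172 FPKM in Col-0 predawn and 80.9, 60.3 and 79.6 FPKM in Col-0 postdusk, a 29.9-fold fall (log2 fold change -4.89 ± 0.14, limma adjusted p = 2.69e-10). In tic-2 it had 1757, 1408 and 1482 FPKM at predawn and 360, 285 and 362 FPKM at postdusk, a 4.61-fold fall. The tic-2 libraries were thus the lower ones at predawn and the higher ones at postdusk, with no overlap at either time. The postdusk difference was 2.18 ± 0.14 (limma adjusted p = 2.62e-06), and the interaction was 2.69 ± 0.20 (limma adjusted p = 2.82e-06). The predawn difference was -0.51 ± 0.14 (limma adjusted p = 0.0172), and its call was lost without Col-0 predawn A or B or tic-2 predawn B (adjusted p from 0.000358 to 0.0665 over 22 alternatives).

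LHCB2.3, the LHCB2 copy with no shared window, had the same shape at a lower level. It had 524, 490 and 543 FPKM in Col-0 predawn, 420, 328 and 313 FPKM in tic-2 predawn, 17.8, 10.3 and 12.9 FPKM in Col-0 postdusk and 67.4, 56.3 and 72.2 FPKM in tic-2 postdusk. Each group was separate from the others. The fall across the day was 38.0-fold in Col-0 (log2 fold change -5.18 ± 0.17, limma adjusted p = 1.11e-09) and 5.41-fold in tic-2, and at postdusk tic-2 was higher by 2.2 ± 0.17 (limma adjusted p = 1.06e-05). The interaction was 2.76 ± 0.24 (limma adjusted p = 1.14e-05), the largest among the 41 members. The predawn difference was -0.56 (limma adjusted p = 0.0298), lost without any Col-0 predawn library or tic-2 predawn B or C (adjusted p from 0.00134 to 0.0956 over 22 alternatives). AT3G27700 on the opposite strand overlaps 595 bases of LHCB2.3 and averaged 7.94 FPKM, beside the 13.7 ± 3.81 FPKM of LHCB2.3 in Col-0 postdusk.

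LHCB1.1 showed the widest swing. It stood at 4226 ± 177 FPKM in Col-0 predawn and 66.6 ± 9.10 FPKM in Col-0 postdusk (SD, n = 3), a 63.5-fold fall (log2 fold change -5.98 ± 0.13, limma adjusted p = 4.08e-11). In tic-2 the levels were 4128 ± 716 and 333 ± 7.32 FPKM, a 12.4-fold fall (log2 fold change -3.62 ± 0.13, limma adjusted p = 1.25e-08). The genotypes overlapped at predawn, where the difference was -0.05 with a 95% interval from -0.34 to 0.24, and at postdusk tic-2 was higher by 2.31 ± 0.13 (limma adjusted p = 9.51e-07). The interaction of 2.36 ± 0.19 was called (limma adjusted p = 4.88e-06). LHCB1.2 was higher in tic-2 at both times, by 0.83 ± 0.13 at predawn (limma adjusted p = 0.000527) and by 1.28 ± 0.13 at postdusk (limma adjusted p = 6.88e-05), and its interaction of 0.45 was not called. LHCB2.2 fell 11.5-fold in Col-0 and 5.57-fold in tic-2 (log2 fold change -2.48 ± 0.15, limma adjusted p = 3.34e-07), and was higher in tic-2 at postdusk by 0.79 with 225 ± 31.0 FPKM against 130.5 ± 26.4 FPKM.

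LHCB1.4 had the largest predawn difference of the LHCB1 copies, in a direction shared by LHCB1.2 and LHCB1.3. It was 3.29-fold higher in tic-2 at predawn, 1821 ± 272 FPKM against 553 ± 75.0 FPKM, a log2 fold change of 1.72 ± 0.35 (limma adjusted p = 0.00302). At postdusk it had 39.0 ± 26.6 FPKM in Col-0 and 52.7 ± 12.6 FPKM in tic-2, with overlap between the groups and a difference of 0.59 (95% interval from -0.16 to 1.35) that was called only without Col-0 postdusk A or with array weights. Its fall across the day was 14.2-fold in Col-0 and 34.6-fold in tic-2 (log2 fold change -5.10 ± 0.35, limma adjusted p = 6.77e-07). The interaction was -1.12, not called with all libraries (limma adjusted p = 0.152) and called without Col-0 postdusk C, at -1.48.

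Sums of the copies do not depend on how reads were split among the summed genes, but reads that were dropped or counted more than once would still affect them. LHCB1.5 is not analysed here and is not in the LHCB1 sum. The 4 LHCB1 copies summed to 19150 ± 866 FPKM in Col-0 predawn, 27659 ± 3131 in tic-2 predawn, 3068 ± 757 in Col-0 postdusk and 6369 ± 685 in tic-2 postdusk (SD, n = 3). The postdusk difference of 1.07 was called (limma adjusted p = 0.00173), while the predawn difference of 0.53 (limma adjusted p = 0.0509) and the interaction of 0.55 (limma adjusted p = 0.185) were not. The 3 LHCB2 copies summed at predawn to 4222 ± 80.8 FPKM in Col-0 and to 3154 ± 337 FPKM in tic-2, and to 218 ± 41.1 and 626 ± 82.4 FPKM at postdusk. Their postdusk difference of 1.53 (limma adjusted p = 6.48e-05) and interaction of 1.95 (limma adjusted p = 6.85e-05) were called, and the predawn difference of -0.43 was not (limma adjusted p = 0.0572). At predawn the sums therefore leaned in opposite directions, LHCB1 up and LHCB2 down in tic-2, with neither called.

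**Figure D3:**
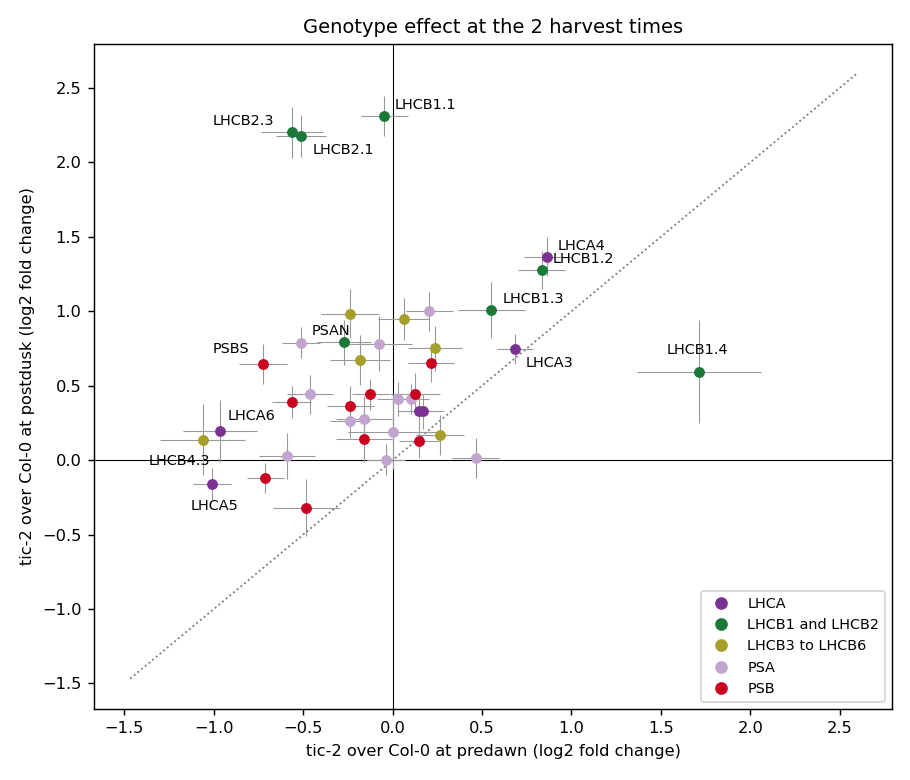
Genotype effect at predawn (horizontal axis) against that at postdusk (vertical axis), each as the log2 fold change of tic-2 over Col-0, 1 point per member coloured by class, with SE bars from limma; on the dotted line both effects are equal. LHCB1.1, LHCB2.1 and LHCB2.3 stand highest at 2.18 to 2.31 on the postdusk axis with predawn values between -0.56 and -0.05, and LHCB1.4 stands farthest right at 1.72.

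LHCB3 fell 4.28-fold across the day in Col-0 and 3.05-fold in tic-2, and was higher in tic-2 at postdusk by 0.75 ± 0.15 (limma adjusted p = 0.00419), with 616 ± 47.5 FPKM against 368 ± 60.3 FPKM. LHCB5, the CP26 gene (AT4G10340, chr4:6408007-6409849, plus strand, 6 exons), had 2557, 2358 and 2554 FPKM in Col-0 predawn, 2577, 2208 and 1850 FPKM in tic-2 predawn, 1105, 898 and 1019 FPKM in Col-0 postdusk and 1883, 1714 and 1266 FPKM in tic-2 postdusk. The genotypes overlapped at predawn and were separate at postdusk, where every tic-2 library was higher. The postdusk difference was 0.67 ± 0.17 (limma adjusted p = 0.0115), and its call was lost without tic-2 postdusk A, at an adjusted p of 0.0501 (from 3.4e-05 to 0.0501 over 23 alternatives). LHCB5 fell 2.47-fold across the day in Col-0, and its change of -0.45 in tic-2 (limma adjusted p = 0.0483) was lost without any Col-0 library, tic-2 predawn A or B, or tic-2 postdusk B or C (adjusted p from 0.021 to 0.163 over 23 alternatives). The LHCB5 interaction of 0.85 (limma adjusted p = 0.0281) was lost without Col-0 predawn A or C, libraries B or C of Col-0 postdusk or of tic-2 predawn, or tic-2 postdusk A or B (adjusted p from 0.00015 to 0.109 over 22 alternatives).

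LHCB6, the CP24 gene (AT1G15820, chr1:5446462-5447880, minus strand, 2 exons), had 575, 516 and 584 FPKM in Col-0 predawn, 458, 408 and 564 FPKM in tic-2 predawn, 241, 182 and 221 FPKM in Col-0 postdusk and 483, 465 and 335 FPKM in tic-2 postdusk. Every Col-0 library was lower at postdusk than at predawn, whereas the tic-2 libraries of both times overlapped. LHCB6 changed across the day by -1.38 ± 0.16 in Col-0 (limma adjusted p = 4.48e-05) and by -0.16 ± 0.16 in tic-2 (limma adjusted p = 0.468). The interaction was 1.22 ± 0.23 (limma adjusted p = 0.00367), and the postdusk difference 0.98 ± 0.16 (limma adjusted p = 0.00158).

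LHCB4 encodes CP29 from 3 genes that did not move together. LHCB4.3 (AT2G40100, chr2:16745628-16747424, plus strand), also known as LHCB8, is the divergent copy, with 65.0% and 65.3% identity of its coding sequence to LHCB4.1 and LHCB4.2, which share 81.1%. It had 12.1, 10.4 and 14.5 FPKM in Col-0 predawn, 6.0, 4.99 and 5.08 FPKM in tic-2 predawn, 39.7, 67.3 and 83.1 FPKM in Col-0 postdusk and 57.4, 86.9 and 59.5 FPKM in tic-2 postdusk. It was therefore higher at postdusk in both genotypes, lower in tic-2 at predawn, and mixed between genotypes at postdusk. It rose 5.13-fold in Col-0 (log2 fold change 2.22 ± 0.24, limma adjusted p = 1.99e-05) and 12.7-fold in tic-2 (3.42 ± 0.24, limma adjusted p = 7.96e-07), and at predawn differed between genotypes by -1.06 ± 0.24 (limma adjusted p = 0.00573). The interaction of 1.2 (limma adjusted p = 0.0312) was lost without Col-0 predawn A or C, tic-2 predawn B or C, or tic-2 postdusk B (adjusted p from 0.00948 to 0.0825 over 22 alternatives). LHCB4.2 fell in both genotypes, by 2.09 and 1.21 on the log2 scale, and was higher in tic-2 at postdusk by 0.95 ± 0.14 (limma adjusted p = 0.000842). LHCB4.1 was called in none of the 5 comparisons; its time changes were -0.21 in Col-0 and -0.31 in tic-2, and its interaction was -0.10 with a 95% interval from -0.51 to 0.31.

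Of the 12 photosystem I subunit genes, 9 fell from predawn to postdusk in Col-0 (75%, against 14.4% of all genes) and 2 in tic-2 (16.7%, near the 19.4% of all genes). At postdusk 6 were higher in tic-2 (50%, against 9.71%). PSAD, PSAE and PSAF form the docking site for soluble electron carriers, PSAG, PSAK, PSAH, PSAL and PSAO bind antenna proteins at the flanks, and PSAN assists plastocyanin on the lumenal side. PSAN (AT5G64040, chr5:25628521-25629708, minus strand, 3 exons) had 1440, 1346 and 1452 FPKM in Col-0 predawn, 946, 988 and 1034 FPKM in tic-2 predawn, 516, 459 and 535 FPKM in Col-0 postdusk and 962, 854 and 798 FPKM in tic-2 postdusk. Tic-2 was lower than Col-0 at predawn and higher at postdusk in every library, and in tic-2 itself the times overlapped. PSAN differed between genotypes by -0.51 ± 0.10 at predawn (limma adjusted p = 0.00315) and by 0.79 ± 0.10 at postdusk (limma adjusted p = 0.000385), with an interaction of 1.3 ± 0.15 (limma adjusted p = 8.14e-05). Across the day it changed by -1.49 ± 0.10 in Col-0 (limma adjusted p = 5.78e-07) and by -0.19 ± 0.10 in tic-2 (limma adjusted p = 0.182).

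PSAL (AT4G12800, chr4:7521257-7522761, plus strand), the PSA gene with the highest mean, had 1781, 1752 and 1804 FPKM in Col-0 predawn, 1510, 1329 and 1718 FPKM in tic-2 predawn, 1394, 1239 and 1334 FPKM in Col-0 postdusk and 1629, 1589 and 1534 FPKM in tic-2 postdusk. The genotypes did not overlap at either time, with tic-2 the lower at predawn and the higher at postdusk, but neither difference was called, and the interaction of 0.50 had a limma adjusted p of 0.0532. That interaction was called without tic-2 predawn C or tic-2 postdusk C and under 5 other alternatives. PSAG (AT1G55670, chr1:20802670-20803449, minus strand, 1 exon) had 55.3, 47.4 and 45.3 FPKM in Col-0 predawn, 45.7, 38.8 and 67.2 FPKM in tic-2 predawn, 43.0, 30.3 and 33.6 FPKM in Col-0 postdusk and 46.3, 53.2 and 26.6 FPKM in tic-2 postdusk. Library C was the highest of tic-2 predawn and the lowest of tic-2 postdusk, and no comparison of PSAG was called with all libraries. Without both C libraries, the interaction, the postdusk difference and the change across the day in Col-0 were called for PSAG. A gene on the opposite strand, AT1G55673, overlaps 479 bases of PSAG and is not analysed here.

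The paired genes differed between copies. PSAD2 was higher in tic-2 at postdusk by 1.0 ± 0.13 (limma adjusted p = 0.000371), with 428 ± 56.2 FPKM against 213 ± 25.3 FPKM, and PSAD1 differed by 0.00 with a 95% interval from -0.23 to 0.23. PSAD1 was called in none of the 5 comparisons. PSAE1 fell by 1.33 on the log2 scale across the day in Col-0 and was higher in tic-2 at postdusk by 0.78 ± 0.19 (limma adjusted p = 0.00956); its interaction of 0.86 (limma adjusted p = 0.0445) was lost without any Col-0 predawn library, B or C of Col-0 postdusk, or A or B of either tic-2 group (adjusted p from 0.000205 to 0.11 over 22 alternatives). PSAE2 was instead higher in tic-2 at predawn, by 0.46 (limma adjusted p = 0.0205), which was lost without any Col-0 predawn library or tic-2 predawn C (adjusted p up to 0.0657 over 23 alternatives). PSAE2 also fell by 0.42 across the day in tic-2, a call lost without tic-2 predawn C or tic-2 postdusk A or B (adjusted p up to 0.0953 over 23 alternatives), and its change in Col-0 was 0.03. PSAH1 was higher in tic-2 at postdusk by 0.41 ± 0.10 (limma adjusted p = 0.0128). PSAH2 had an interaction of 0.91 ± 0.18 (limma adjusted p = 0.00514) and genotype differences of -0.46 at predawn and 0.44 at postdusk. The predawn call of PSAH2 was lost without any Col-0 predawn library or tic-2 predawn B (adjusted p up to 0.0735 over 23 alternatives). The postdusk call of PSAH2 was lost without Col-0 postdusk B or C or tic-2 postdusk C (adjusted p up to 0.0827 over 23 alternatives).

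PSAK differed between genotypes at predawn by -0.59 ± 0.16 (limma adjusted p = 0.0144) and its postdusk difference of 0.03 was not called. PSAF was higher in tic-2 at postdusk by 0.41 ± 0.12 (limma adjusted p = 0.0204), lost without Col-0 postdusk B or C or tic-2 postdusk A (adjusted p up to 0.0847 over 23 alternatives), and fell across the day in Col-0 by 0.63. PSAO fell in Col-0 by 0.67 and was called in no genotype comparison. For PSAF, PSAK and PSAO, as for PSBW, the interaction was called once tic-2 postdusk C was left out.

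Among the photosystem II subunits, PSBO, PSBP and PSBQ form the extrinsic oxygen-evolving complex, PSBR helps to hold it, PSBS senses lumen acidity and triggers heat dissipation of excess energy, and PSBW, PSBX and PSBY are small membrane subunits. PSBS (AT1G44575, chr1:16870221-16873427, plus strand) was the PSB gene with the smallest interaction p. It had 621, 639 and 650 FPKM in Col-0 predawn, 481, 350 and 339 FPKM in tic-2 predawn, 898, 931 and 1102 FPKM in Col-0 postdusk and 1510, 1552 and 1505 FPKM in tic-2 postdusk. All 4 groups were separate, and tic-2 was the lowest group at predawn and the highest at postdusk. The genotype difference was -0.72 ± 0.13 at predawn (limma adjusted p = 0.00179) and 0.65 ± 0.13 at postdusk (limma adjusted p = 0.00505), and the interaction 1.37 ± 0.19 (limma adjusted p = 0.000391). PSBS rose across the day by 0.61 ± 0.13 in Col-0 (limma adjusted p = 0.00357) and by 1.98 ± 0.13 in tic-2, a 3.90-fold rise (limma adjusted p = 6.72e-07). With LHCB4.3, it was the other member that rose in Col-0.

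PSBR (AT1G79040, chr1:29735952-29737009, plus strand) had 4802, 4380 and 4754 FPKM in Col-0 predawn, 4735, 4535 and 6023 FPKM in tic-2 predawn, 4437, 4082 and 4487 FPKM in Col-0 postdusk and 5429, 5767 and 6521 FPKM in tic-2 postdusk. The genotypes overlapped at predawn and were separate at postdusk, with tic-2 higher by 0.44 ± 0.14 (limma adjusted p = 0.0342). That call was lost when any of the 6 postdusk libraries was left out, and the value turned to -0.0689 under quantile normalization (adjusted p from 0.0115 to 0.791 over 23 alternatives). PSBY (AT1G67740, chr1:25394031-25395249, minus strand) had 829, 801 and 767 FPKM in Col-0 predawn, 699, 584 and 762 FPKM in tic-2 predawn, 565, 572 and 662 FPKM in Col-0 postdusk and 703, 721 and 904 FPKM in tic-2 postdusk. Tic-2 lay below Col-0 at predawn and above it at postdusk without overlap, neither difference was called, and the interaction was 0.60 (limma adjusted p = 0.0453). That PSBY interaction was lost without any Col-0 predawn or tic-2 postdusk library, Col-0 postdusk A or B, or tic-2 predawn A or B (adjusted p from 0.00164 to 0.107 over 22 alternatives), and its change of -0.42 across the day in Col-0 was lost without A or B of either Col-0 group (adjusted p up to 0.0829 over 23 alternatives).

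The oxygen-evolving subunits came in copies that again differed. PSBO1 fell across the day by 0.84 on the log2 scale in Col-0 and was higher in tic-2 at postdusk by 0.65 ± 0.13 (limma adjusted p = 0.00373), 2511 ± 168 FPKM against 1597 ± 149 FPKM. Its change of -0.40 in tic-2 was lost without tic-2 predawn A or C or tic-2 postdusk B or C (adjusted p up to 0.207 over 23 alternatives). PSBO2 was lower in tic-2 at predawn by -0.57 ± 0.11 (limma adjusted p = 0.00246) and rose across the day in tic-2 by 0.71 ± 0.11 (limma adjusted p = 0.000341), with an interaction of 0.96 ± 0.16 (limma adjusted p = 0.00128). Its postdusk difference of 0.39 was lost without any Col-0 postdusk library or tic-2 postdusk A or C (adjusted p up to 0.0854 over 23 alternatives). PSBP1 was higher in tic-2 at postdusk by 0.44 ± 0.10 (limma adjusted p = 0.00924), and its interaction of 0.57 was lost without Col-0 predawn A, Col-0 postdusk B or tic-2 postdusk A (adjusted p up to 0.159 over 22 alternatives). PSBQ1 was lower in tic-2 at predawn by -0.71 ± 0.10 (limma adjusted p = 0.000316) and had an interaction of 0.59 (limma adjusted p = 0.0159), which was lost without the filter and under quantile normalization (adjusted p up to 0.18 over 22 alternatives). The tic-2 rise of 0.38 in PSBQ1 was lost without both C libraries, under quantile normalization and with only the compared groups in the fit. PSBQ2 fell by 0.85 in Col-0 and 0.87 in tic-2 and was called in no genotype comparison, with an interaction of -0.02 and a 95% interval from -0.36 to 0.32. PSBW and PSBX were called in none of the 5 comparisons with all libraries, and PSBX had the lowest postdusk difference of the 41 members, -0.32. Without tic-2 postdusk C, the predawn difference and the tic-2 time change of PSBX were called.

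Read as summed levels, the antenna moved more than the photosystem subunits. The 19 antenna genes summed to 37674 ± 1045 FPKM in Col-0 predawn, 48015 ± 4350 in tic-2 predawn, 10514 ± 1270 in Col-0 postdusk and 17937 ± 1034 in tic-2 postdusk (SD, n = 3). The 22 photosystem genes summed to 27120.05 ± 655, 25148 ± 2419, 20752 ± 1048 and 26097 ± 690.0 FPKM in the same order. The ratio of the antenna sum to the photosystem sum was 1.39 ± 0.0130 in Col-0 predawn, 1.91 ± 0.0935 in tic-2 predawn, 0.506 ± 0.0368 in Col-0 postdusk and 0.687 ± 0.0291 in tic-2 postdusk. By library it ran from 1.37 to 1.4, 1.83 to 2.01, 0.478 to 0.547 and 0.658 to 0.716, so that no group overlapped another, and tic-2 was above Col-0 at both times. LHCB1.3 supplied 33.7% of the antenna sum in Col-0 predawn, 39.0% in tic-2 predawn, 25.3% in Col-0 postdusk and 29.6% in tic-2 postdusk. Without LHCB1.3 the ratios were 0.920, 1.17, 0.377 and 0.483 in that order. With the median over members in place of the sum, the ratio was 1.61 in Col-0 predawn, 1.87 in tic-2 predawn, 0.339 in Col-0 postdusk and 0.643 in tic-2 postdusk, a smaller gap between genotypes at predawn and a larger one at postdusk. At predawn 5 of the 19 antenna genes were called higher in tic-2 and 5 lower (13.1% and 14.6% of all genes). The higher antenna sum there was thus not a rise of all antenna genes. These ratios are descriptions of chosen members and were not tested.

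**Figure D4:**
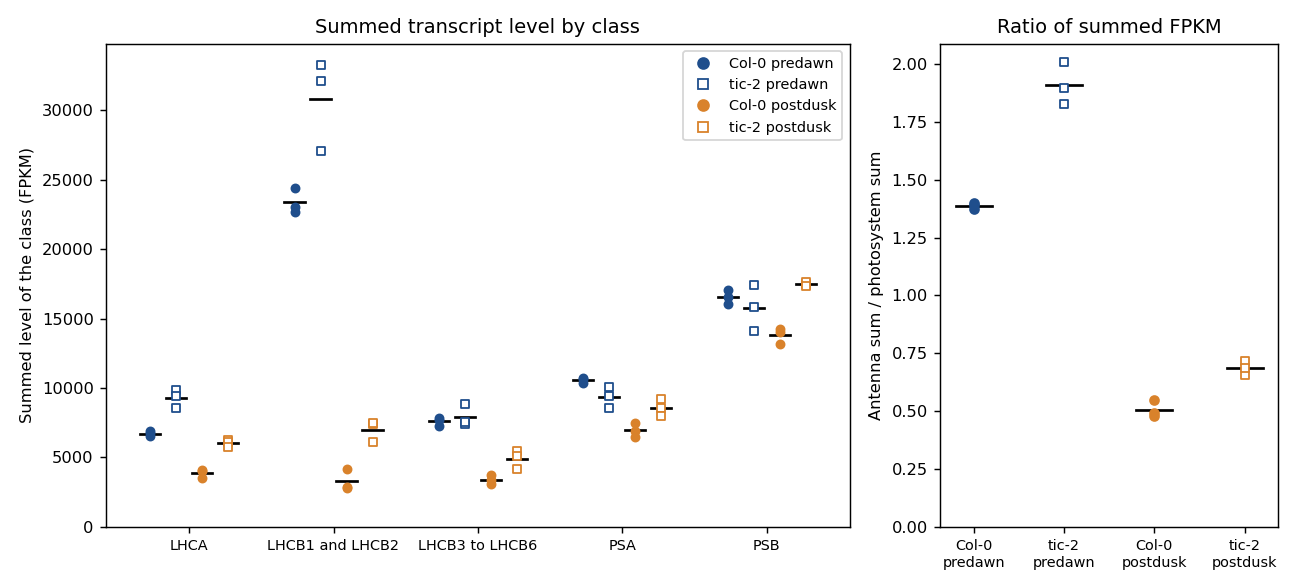
Left, summed FPKM of the LHCA, LHCB1 and LHCB2, LHCB3 to LHCB6, PSA and PSB genes in each library, and right, the ratio of the antenna sum to the photosystem sum per library; horizontal bars are group means (n = 3). The LHCB1 and LHCB2 sum fell from a mean of 23372 to 3286 FPKM in Col-0, and the PSB sum from 16549 to 13804 FPKM.

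The genes around the photosystems were taken as lists by function, and are given for comparison. Of 12 genes of electron transport and ATP synthase, 8 were lower in tic-2 at predawn (14.6% of all genes), with a median log2 fold change of -0.55 against -0.03 for all genes. Among them FD1, a leaf ferredoxin, was lower, with a log2 fold change of -1.71 ± 0.11 (limma adjusted p = 6.78e-07), and the ATP synthase subunits ATPD and ATPC1 by -0.88 and -0.59. At postdusk, where 9.71% of all genes were higher and 19.8% lower, 2 of the 12 were higher, PGR5 of cyclic electron flow by 0.55 and the plastocyanin PETE1 by 0.43, and 1 was lower, the ferredoxin reductase LFNR2 by -0.34. Across the day 5 rose and 2 fell in Col-0 (22.7% and 14.4% of all genes), and 9 rose and 1 fell in tic-2 (18.5% and 19.4% of all genes). LFNR2 and LFNR1 rose in both genotypes, by 1.67 and 0.92 in Col-0, a direction opposite to that of most antenna genes. The interaction was called higher in 8 of the 12 (7.28% of all genes), among them PGRL1A, also of cyclic electron flow, with 1.5.

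Of 7 relatives of the antenna proteins, 6 were lower in tic-2 at predawn (14.6% of all genes) and 6 higher at postdusk (9.71%). LHCB7 changed by -1.19 at predawn and 0.60 at postdusk, with an interaction of 1.79 ± 0.15 (limma adjusted p = 9.73e-06). OHP1, a small one-helix protein of photosystem II assembly, had an interaction of 1.46, and OHP2 and SEP2 had 0.95 each. ELIP1, an early light-induced protein, was higher in tic-2 at postdusk by 1.31 ± 0.34 (limma adjusted p = 0.0151). LHCB1.5 is not analysed here. Of 10 assembly and state-transition genes, 4 were lower in tic-2 at predawn (14.6% of all genes). At postdusk 2 were higher and 1 lower, beside 9.71% and 19.8% of all genes. STN7, the kinase that phosphorylates LHCII, changed by -0.87 at predawn and 0.55 at postdusk, while STN8, the kinase of photosystem II core proteins, changed by -0.92 and -0.31. PSB28 was lower in tic-2 at predawn by -1.21 and rose in tic-2 across the day by 1.59. CPSRP43, part of the particle that delivers LHC proteins to the thylakoid, fell across the day in Col-0 by 1.31 and was higher in tic-2 at postdusk by 0.78. TAP38, the phosphatase that opposes STN7, rose across the day in Col-0 by 0.67, and PPL1, a lumenal protein of photosystem II repair, rose in tic-2 by 0.71.

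Of 10 regulators of photosynthetic genes, 8 fell across the day in Col-0 (14.4% of all genes). At postdusk 7 stood higher in tic-2 (9.71%), and at predawn 6 stood lower (14.6%). CCA1, a clock factor named for its binding to an LHCB1 promoter, ran from 239 to 281 FPKM in Col-0 predawn, 157 to 198 in tic-2 predawn, 0.712 to 0.769 in Col-0 postdusk and 52.2 to 69.6 in tic-2 postdusk. Its partner LHY ran from 374 to 417, 151 to 167, 0.465 to 0.517 and 29.4 to 32.7 FPKM in the same order. Both were thus near the bottom of the scale at postdusk in Col-0 and intermediate at postdusk in tic-2. At predawn both were high, but every tic-2 library lay below every Col-0 library. The LHY difference at predawn was -1.34 ± 0.08 (limma adjusted p = 4.23e-07). The postdusk differences were 5.13 ± 0.12 for CCA1 (limma adjusted p = 1.85e-10) and 4.45 ± 0.08 for LHY (limma adjusted p = 2.35e-11). GLK2, which activates antenna and chlorophyll synthesis genes, ran from 154 to 158 FPKM in Col-0 predawn, 94.2 to 132 in tic-2 predawn, 21.4 to 24.6 in Col-0 postdusk and 62.1 to 88.3 in tic-2 postdusk. GLK2 was lower in tic-2 at predawn by -0.49 ± 0.14 (limma adjusted p = 0.0202) and higher at postdusk by 1.68 ± 0.14 (limma adjusted p = 1.45e-05), and GLK1 was higher at postdusk by 0.88 ± 0.14 (limma adjusted p = 0.00116). The light-signalling factors HY5 and HYH were lower in tic-2 at predawn by -0.96 and -2.09, and SIG5, a sigma factor for chloroplast transcription, by -1.44. At postdusk HYH and SIG5 were higher in tic-2 by 1.26 and 1.93, and PIF1, a phytochrome-interacting factor, by 0.73. Of the 10 root markers that passed the filter, SHR and PHO1 were higher in tic-2 at predawn by 0.41 and 0.49 (13.1% of all genes were higher). The other 8 were not called at predawn. Their means were lower in tic-2 for SCR, RHD6, GL2 and PIN2 (15.3 against 18.7 FPKM for SCR) and higher for EXPA7, COBL9, CASP1 and MYB36. SHR was also higher at postdusk by 0.66. Across the day 2 of the 10 fell in Col-0 (20%, against 14.4% of all genes), with log2 fold changes of -0.57 for PHO1 and -0.56 for SHR. In tic-2, 3 of the 10 fell (30%, against 19.4% of all genes), with -0.99 for CASP1, -0.79 for PHO1 and -0.32 for SHR. The part of the root markers in the results above was not tested.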

How the data were processed

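RNA of 12 whole-seedling samples, 3 per group, was sequenced after directional library preparation, per the labels' protocols. The authors deposited 1 table of FPKM values per gene; TopHat, TopHat2, edgeR and the TAIR10 build are named in the submitters' processing notes without versions or roles, and the counter, the handling of reads that fit several genes and any use of strand could not be learned from the labels or headers. Of 25729 genes, 6455 did not reach 1 FPKM in at least 3 libraries. The other 19274 were fitted with limma 3.58.1 in R 4.3.3 on log2(FPKM + 1), so fold changes of low genes are understated, with 1 mean per group, a trend in the prior variance, 8 residual and 3.78 prior degrees of freedom, and Benjamini-Hochberg adjustment over all genes. The fit was tested on simulated data. Sequences and gene models came from RefSeq TAIR10.1, read with Python 3.11.15. The members and lists were chosen with earlier results of these data known. All members are named. Values in every library are given, per class, for the member with the highest mean, the lowest mean and the smallest interaction p, full statistics for the 3 largest rises and falls per comparison, and from the lists the called genes with the smallest adjusted p and CCA1, LHY, GLK1 and GLK2. The labels call the 3 samples of a group biological replicates. Alternatives covered the pseudocount, the filter, rescaling, array weights, summed copies, each library left out and a replicate block.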

Additional observations from a re-analysis of the deposited data

Results flagged for a closer look

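These values stood out because the effect of tic-2 differed between the harvest times, by limma's test of the interaction (postdusk effect minus predawn effect, log2 scale, adjusted p below 0.05 over all genes, n = 3 libraries per group). All of them were positive. Among antenna genes they were 2.76 for LHCB2.3, 2.69 for LHCB2.1, 2.36 for LHCB1.1, 1.22 for LHCB6, 1.2 for LHCB4.3, 1.16 for LHCA6, 1.06 for LHCB2.2, 0.88 for LHCB4.2, 0.85 for LHCA5 and 0.85 for LHCB5. Among photosystem I subunits they were 1.3 for PSAN, 0.91 for PSAH2, 0.86 for PSAE1 and 0.79 for PSAD2. Among photosystem II subunits they were 1.37 for PSBS, 0.96 for PSBO2, 0.60 for PSBY, 0.59 for PSBQ1 and 0.57 for PSBP1.

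Of the listed genes outside the members, those named by rule and called in the interaction were FD1 with 1.55, PGR5 with 1.22, ATPD with 0.76 and ATPC1 with 0.50 in electron transport and ATP synthase. The antenna relatives gave 1.79 for LHCB7, 1.46 for OHP1, 0.95 for OHP2 and 0.95 for SEP2. The assembly and state-transition genes gave 1.42 for STN7, 1.24 for PSB28, 0.66 for CPSRP43, 0.64 for PPL1 and 0.61 for STN8. The regulators gave 5.79 for LHY, 5.66 for CCA1, 3.38 for SIG5, 3.35 for HYH, 2.17 for GLK2, 1.3 for HY5 and 1.01 for GLK1.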

How the results depend on the processing

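Of 114 member calls, 84 were made under all of up to 23 alternatives and 30 were lost under at least 1. Where lost calls are described above, mostly the left-out libraries are named, and other alternatives also lost some of them. Of 91 uncalled values, 50 were called under at least 1 alternative. With 1 library left out, members called higher in the interaction ranged from 14 to 23 and lower from 0 to 1, the 1 being LHCB1.4 without Col-0 postdusk C. Quantile normalization gave 1 member lower at postdusk and 1 lower in the interaction, and turned PSBR at postdusk to -0.0689. Array weights gave 17 members lower at predawn, 33 higher in the interaction and 14 higher across the day in tic-2. Member counts in this section are given without the share of all genes called in the same fit. A gain in calls among all genes therefore cannot be told apart from one among the members. With LHCB1 and LHCB2 copies summed, which leaves fewer features, 3 were higher at predawn. The antenna to photosystem ratio by the median over members was 1.61 in Col-0 predawn, 1.87 in tic-2 predawn, 0.339 in Col-0 postdusk and 0.643 in tic-2 postdusk. Where no reason is stated, the cause was not tested.

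Same-lettered libraries showed little likeness: their deviations from group means correlated from -0.327 to 0.206 over 18 pairs, 1 of them above 0.1. Of the 18, 5 matched their own letter best. With 3 libraries per group, these values cannot tell whether a letter marks a shared harvest or batch. With a replicate block, 6 members were higher and 11 lower at predawn, 25 higher at postdusk, 18 higher in the interaction, 2 higher and 28 lower across the day in Col-0, and 6 and 18 in tic-2.

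With 3 libraries per group and 1 allele, precision rests on few samples, and the split of reads among the LHCB1.1, LHCB1.2 and LHCB1.3 copies and between LHCB2.1 and LHCB2.2 is uncertain. 15 members overlap a gene on the opposite strand, and overlapping genes in the table averaged at most 46.1 FPKM.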
